A study of Rattus norvegicus with 2 samples.

Results

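The genes described here are 10 imprinted genes that control growth: Dlk1, Meg3, H19, Cdkn1c, Peg3, Peg10, Grb10, Mest, Plagl1 and Ndn. They were chosen by name as imprinted growth genes, without the genes of the IGF axis, and all 10 were found among the 37203 genes of the deposited count table. Of these, 8 were matched by symbol and the other two through RefSeq: Meg3 under a predicted-gene name, and Peg3 under a locus name. The table lists the Peg3 row as an uncharacterized non-coding RNA of 3534 bases, so its count may cover only a stretch of the gene. All 10 genes had at least 20 counts in both libraries together, the minimum for a comparison, which 15426 genes passed.

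The study asked what the loss of SNX17, a sorting nexin that recycles membrane cargo from endosomes, does to the developing heart. Cardiac outflow tracts (OFTs) of Sprague-Dawley rat embryos at E13.5 were sequenced as 1 HO library, from Snx17-/- embryos carrying a CRISPR/CAS9 frameshift in the PX domain, and 1 WT library, from wild-type embryos. Each library came from OFTs of 10 embryos, mixed before the RNA was isolated, so neither genotype had a replicate, and no p-value was computed. The HO library held 9528615 counts and the WT library 9321811. Snx17 itself had 994 counts in the HO library and 1365 in the WT library, a fold of 0.721 (0.663 to 0.783). The targeted transcript was thus still present in the HO library. For the protein, the study's Western blots at a later stage found SNX17 almost absent from HO tissues. In a pooled tissue, fewer cells of a type and less RNA per cell cannot be told apart.

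Imprinted genes are expressed mainly from the maternal or mainly from the paternal copy, as set by DNA methylation laid down in the parents' germ cells and kept in the embryo by zinc finger proteins and maintenance methylation. Many act on fetal growth: paternally expressed genes often promote it and maternally expressed genes often restrain it. They are typically high in fetal tissues and decline after birth. Which copy is expressed is known mostly from the mouse, and reads of the copies were not separated here.

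H19 hosts a microRNA, miR-675, whose row of the table is taken up with H19 below. The hairpin is shown with both mature arms in capitals, and each mature sequence with its seed, bases 2 to 8, in capitals, all 5′ to 3′ from RefSeq on build GRCr8, where the hairpin lies at chr1:207161752-207161835 on the minus strand inside H19.
mir-675 hairpin: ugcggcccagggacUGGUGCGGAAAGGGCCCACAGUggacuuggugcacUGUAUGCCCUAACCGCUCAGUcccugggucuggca
miR-675-5p: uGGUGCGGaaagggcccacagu
miR-675-3p: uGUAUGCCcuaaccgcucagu

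Meg3 likewise hosts miR-770, at chr6:134298084-134298159 on the plus strand of the same build, marked in the same way. Neither seed of miR-770 equals a seed of miR-675.
mir-770 hairpin: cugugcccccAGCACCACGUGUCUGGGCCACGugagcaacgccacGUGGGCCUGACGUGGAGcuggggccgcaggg
miR-770-5p: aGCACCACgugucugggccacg
miR-770-3p: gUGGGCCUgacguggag

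RefSeq promoter windows, 250 bases before to 50 after the start of the gene in GRCr8, were matched for 8 of the 10 genes (H19 and Cdkn1c had no entry). They are gene starts and were not chosen as the regions whose methylation sets the imprints. They are shown because the upkeep of imprints rests in part on ZFP57, which binds a methylated TGCCGC. This hexamer, searched as TGCCGC and its reverse complement GCGGCA, occurred in 5 of the 8 windows: Dlk1, Meg3, Peg10, Grb10 and Plagl1. It occurred in 11.7% of all 33469 promoter windows, and in 25.04% of the 11827 windows with at least 13 CG dinucleotides, the fewest in any of the 8. All 8 windows were above the overall median of 7 CG dinucleotides: Dlk1 had 45, Grb10 44, Plagl1 29, Peg10 22, Mest 18, Peg3 16, Ndn 14 and Meg3 13. The windows of Dlk1, Meg3, Peg10 and Plagl1 are given 5′ to 3′ along the gene's strand with the hexamer in capitals, and a match is a description of the letters alone.
Dlk1, chr6:134192347-134192646, plus strand: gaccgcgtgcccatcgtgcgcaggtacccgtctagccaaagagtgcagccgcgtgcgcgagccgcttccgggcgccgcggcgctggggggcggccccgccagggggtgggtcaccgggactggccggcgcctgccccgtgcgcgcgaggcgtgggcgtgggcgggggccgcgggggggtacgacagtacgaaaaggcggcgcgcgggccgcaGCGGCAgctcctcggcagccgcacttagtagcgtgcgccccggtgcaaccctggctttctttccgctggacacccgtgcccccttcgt
Meg3, chr6:134273806-134274105, plus strand: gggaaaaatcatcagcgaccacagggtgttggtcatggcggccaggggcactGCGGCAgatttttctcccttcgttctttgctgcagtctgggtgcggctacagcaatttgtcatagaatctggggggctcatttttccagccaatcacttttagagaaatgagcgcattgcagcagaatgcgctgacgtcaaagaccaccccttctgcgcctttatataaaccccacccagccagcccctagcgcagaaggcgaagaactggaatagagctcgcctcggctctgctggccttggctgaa
Peg10, chr4:33808776-33809075, plus strand: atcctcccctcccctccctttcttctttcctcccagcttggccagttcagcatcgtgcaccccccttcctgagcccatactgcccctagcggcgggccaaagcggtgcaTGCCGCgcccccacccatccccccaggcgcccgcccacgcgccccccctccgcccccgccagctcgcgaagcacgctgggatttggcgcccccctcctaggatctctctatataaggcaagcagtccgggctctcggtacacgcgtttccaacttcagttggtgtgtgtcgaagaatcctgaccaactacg
Plagl1, chr1:9297214-9297513, plus strand: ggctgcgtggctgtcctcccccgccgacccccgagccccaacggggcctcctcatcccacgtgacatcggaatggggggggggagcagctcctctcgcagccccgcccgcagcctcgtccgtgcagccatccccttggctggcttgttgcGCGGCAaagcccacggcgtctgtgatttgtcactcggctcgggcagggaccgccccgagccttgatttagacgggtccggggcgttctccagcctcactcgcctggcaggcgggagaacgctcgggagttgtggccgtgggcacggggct

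Levels are given as the deposited RPKM, reads scaled by gene length and by library size, with an exact 95% Poisson interval that covers counting error only. The levels of the 10 genes ran from those of the most abundant RNAs of these OFTs, with H19, down to moderate ones, with the row matched to Peg3. H19, a maternally expressed long non-coding RNA that restrains growth, stood at 5316 RPKM in the HO library (5285 to 5346) and 5390 RPKM in the WT library (5359 to 5421). It ranked 3 by RPKM in the HO library, behind the mitochondrial genes COX2 and ATP6, and 1 in the WT library, and it had the most counts of any gene in both.

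Below H19 came Grb10 and Mest. Grb10, an adaptor that binds the insulin receptor and dampens its signal, stood at 409 RPKM in the HO library (404 to 415) and 432 RPKM in the WT library (426 to 438). Mest, a member of the alpha/beta hydrolase family that marks embryonic mesoderm, stood at 399 RPKM in the HO library (388 to 410) and 364 RPKM in the WT library (353 to 374). Their intervals overlapped in the HO library and did not in the WT library, so the order of this pair was clear beyond counting error only in WT.

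Cdkn1c, the cyclin-dependent kinase inhibitor p57, had 200.02 RPKM in the HO library (194 to 206) and 171 RPKM in the WT library (165 to 177). Meg3, the maternally expressed long non-coding RNA of the Dlk1 domain, had 107 RPKM in the HO library (105 to 110) and 113 RPKM in the WT library (110 to 116). Both ranked high among all genes: Cdkn1c ranked 341 in HO and 380 in WT, and Meg3 687 in HO and 623 in WT.

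Ndn, which encodes the MAGE-family protein necdin that holds back the cell cycle, stood at 75.6 RPKM in the HO library (71.3 to 80.1) and 75.7 RPKM in the WT library (71.3 to 80.2). Peg10, a retrotransposon-derived gene that the mouse placenta requires, stood at 69.5 RPKM in the HO library (66.2 to 73.0) and 86.9 RPKM in the WT library (83.1 to 90.9). These were the sole neighbours that changed order: Peg10 was above Ndn in WT with no overlap of the intervals, and below it in HO with intervals that overlapped.

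The lowest 3 were Plagl1, Dlk1 and Peg3. Plagl1, a zinc finger transcription factor that regulates other imprinted genes in the mouse, had 37.3 RPKM in the HO library (35.6 to 39.1) and 44.8 RPKM in the WT library (42.8 to 46.8). Dlk1, a membrane protein with EGF repeats that keeps progenitor cells undifferentiated, had 25.7 RPKM in the HO library (23.1 to 28.4) and 22.1 RPKM in the WT library (19.8 to 24.7). Of these 3, Dlk1 alone had the higher level in HO. Peg3, a Krüppel-type zinc finger transcription factor, was matched to a row listed as a non-coding RNA, which may cover only a stretch of the gene. That row had 7.39 RPKM in the HO library (6.50 to 8.37) and 9.56 RPKM in the WT library (8.53 to 10.7). Even so, it lay at percentile 60.9 in HO and 66.0 in WT of the genes with a count in that library.

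**Figure D1:**
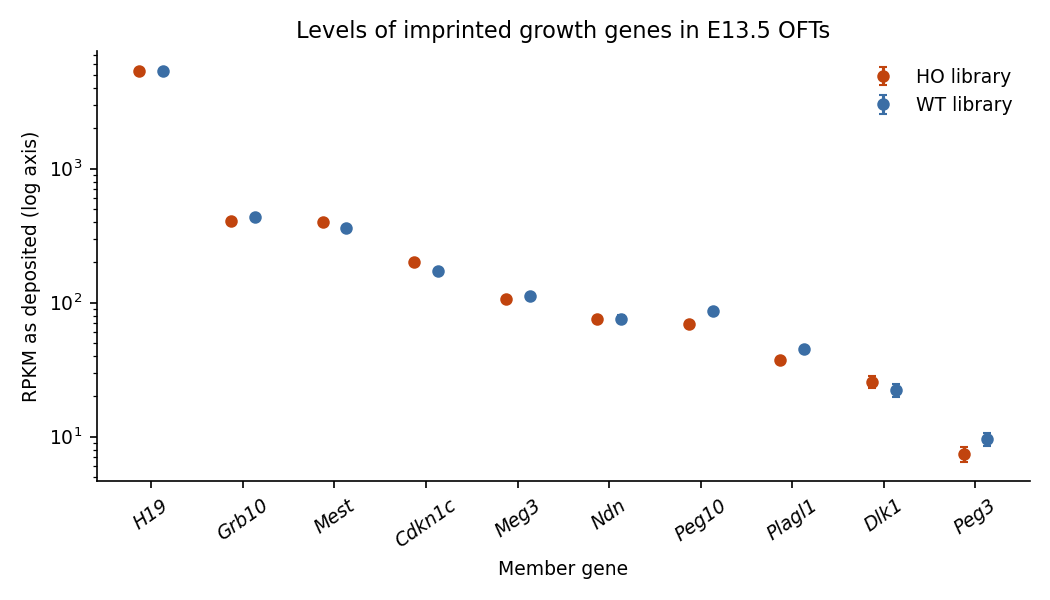
Deposited RPKM (log axis) of the 10 imprinted growth genes in the HO library (left point of each pair) and the WT library (right point), with exact 95% Poisson intervals for counting error. H19 stands far above the others, at 5316 RPKM in HO and 5390 RPKM in WT. The row matched to Peg3, listed as a non-coding RNA, is lowest, at 7.39 RPKM in HO and 9.56 RPKM in WT.

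Counts of the 10 genes came to 158276 in the HO library and 157644 in the WT library, or 1.66% of all HO counts and 1.69% of all WT counts. Maternally expressed genes (H19, Grb10, Meg3 and Cdkn1c) held most of this, with 1.55% of the HO counts and 1.58% of the WT counts. The 6 paternally expressed genes held 0.107% of the HO counts and 0.110% of the WT counts.

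For the comparison of HO with WT, folds are HO over WT counts after TMM scaling of the library sizes, with an exact 95% interval for counting error from the split of each gene's counts. A gene was called at 1.5-fold where the whole interval lay beyond 1.5-fold, and was called beyond counting error where the interval left out a fold of 1. None of the 10 genes was called at 1.5-fold in either direction, beside 0.771% of all tested genes called higher and 1.18% called lower in HO. Beyond counting error, 3 were higher in HO, beside 20.3% of all tested genes, and 5 were lower, beside 17.0%. These shares, here and for the lists below, were not matched for counts, and more counts let smaller folds pass. The 10 genes had from 564 to 234594 counts over both libraries, while a tested gene needed only 20. The median log2 fold of the set was −0.032, against 0.014 for all tested genes. Without replicates, the spread between embryos is unknown, so a fold beyond counting error compares these libraries and not the genotypes.

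Cdkn1c, Dlk1 and Mest were the genes higher in HO. Cdkn1c had 3915 counts in the HO library and 3276 in the WT library, a fold of 1.18 (1.13 to 1.24). Dlk1 had 377 counts in the HO library and 318 in the WT library, a fold of 1.17 (1.01 to 1.37), and its call was lost under 5 of the 7 alternative settings that could change it. Mest had 5111 counts in the HO library and 4560 in the WT library, a fold of 1.11 (1.07 to 1.15), with a log2 fold of 0.15 that was 0.076 once folds were centred by gene length. A growth restrainer, a keeper of the progenitor state and a mesodermal gene thus stood on the same side. The annotation of the Dlk1 row names Dlk2, its closest relative, as its best match, and Dlk2 itself had 1 count in the HO library and 0 in the WT library.

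Peg3, Peg10 and Plagl1 were the genes lowest in HO relative to WT, and all 3 are paternally expressed. Peg3 had 249 counts in the HO library and 315 in the WT library, a fold of 0.782 (0.660 to 0.927). Peg10 had 1592 counts in the HO library and 1947 in the WT library, a fold of 0.809 (0.757 to 0.865). Plagl1 had 1724 counts in the HO library and 2024 in the WT library, a fold of 0.843 (0.790 to 0.899). The intervals of these 3 genes overlapped, so their order among themselves was not resolved at this depth.

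Grb10 and Meg3 were lower in HO by a few percent, a size that their many reads could separate from 1. Grb10 had 19668 counts in the HO library and 20317 in the WT library, a fold of 0.958 (0.939 to 0.977), with a log2 fold of −0.062 that was −0.11 under upper-quartile scaling. Meg3 had 6719 counts in the HO library and 6932 in the WT library, a fold of 0.959 (0.927 to 0.992), and its call was lost under 3 of the same 7 settings.

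H19 and Ndn did not differ beyond counting error. H19 had 117768 counts in the HO library and 116826 in the WT library, a fold of 0.998 (0.989 to 1.01). Ndn had 1153 counts in the HO library and 1129 in the WT library, a fold of 1.01 (0.930 to 1.10). The call of H19 depends on the scaling: under 4 of the 7 settings it was lower in HO beyond counting error, with log2 folds between −0.05 and 0.01 over all of them.

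**Figure D2:**
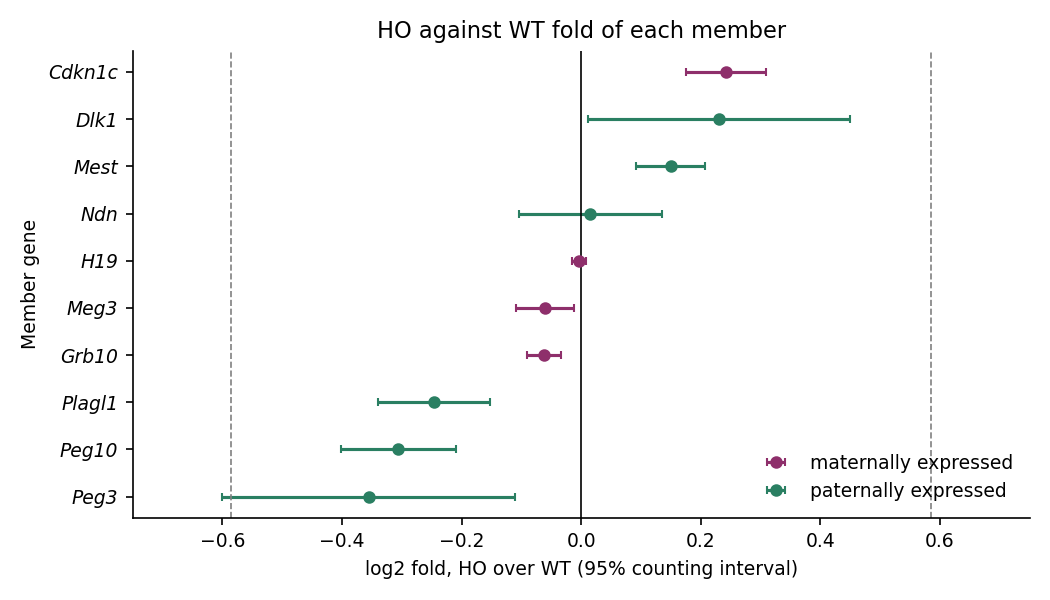
Log2 fold of HO over WT for each of the 10 genes, with the 95% counting interval, coloured by the parental copy expressed in the mouse, and with dashed lines at 1.5-fold. All 10 points lie inside the dashed lines, from Peg3 at −0.35 to Cdkn1c at 0.24, and the interval of Peg3 reaches past the lower line, to −0.60.

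Folds did not split by parental copy. Of the 6 paternally expressed genes, Dlk1 and Mest were higher in HO, Peg3, Peg10 and Plagl1 were lower, and Ndn was within counting error, with a median log2 fold of −0.12. Of the 4 maternally expressed genes, Cdkn1c was higher, Meg3 and Grb10 were lower, and H19 was within counting error, with a median log2 fold of −0.032. Both kinds therefore held genes on either side.

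**Figure D3:**
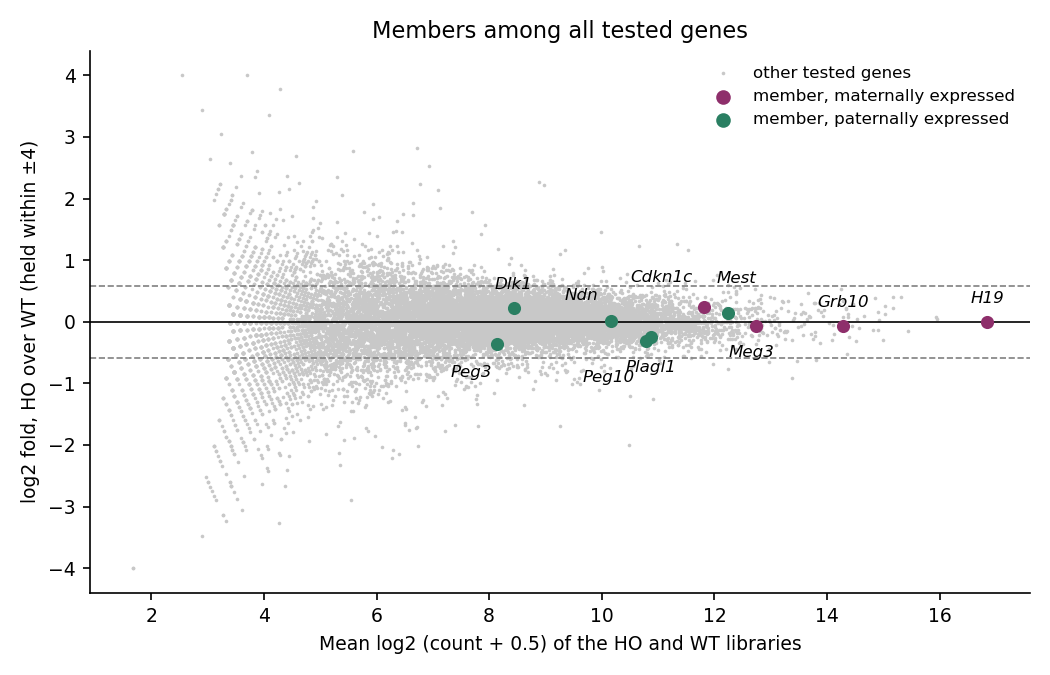
Log2 fold of HO over WT (vertical axis, held within ±4) against the mean log2 of the count plus 0.5 in the HO and WT libraries, for the 15426 tested genes in grey and the 10 imprinted genes in colour. The 10 genes lie between −0.35 and 0.24, inside the dashed 1.5-fold lines, while 119 other genes were called higher and 182 lower.

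Some of these genes are read from opposite copies of a shared domain, so their ratio was followed within each library. In the Dlk1 and Meg3 domain, the ratio of RPKM levels, Dlk1 to Meg3, was 0.240 in the HO library and 0.196 in the WT library. In the H19 and Igf2 domain, where Igf2, the fetal growth factor, had 64942 counts in the HO library and 62147 in the WT library (fold 1.03, 1.02 to 1.05), the ratio of H19 to Igf2 was 3.51 in HO and 3.63 in WT. In the first pair, Dlk1 had a fold of 1.17 and Meg3 of 0.959. Neither call was stable: Dlk1 was higher under 2 of the 7 alternative settings and Meg3 lower under 4. In the second pair, H19 was within counting error at 0.998. Igf2r, the imprinted receptor that clears IGF2, had 31555 counts in HO and 30751 in WT, within counting error. Its fold was 1.02 (0.9995 to 1.03), with a lower end so close to 1 that its call can depend on the scaling.

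The row of Mir675, whose hairpin and seeds are shown above, was chosen for mention after its values were seen. It had 445 counts in the HO library and 314 in the WT library, a fold of 1.40 (1.21 to 1.63), while the H19 gene around it had a fold of 0.998. Its RPKM was 0.105 of that of H19 in HO and 0.0744 in WT. In a library of total RNA, reads at the 84 bases of the hairpin can come from H19 itself, the hairpin or the mature arms, which cannot be told apart. The row of Mir770 inside Meg3 had 29 counts in HO and 44 in WT, a fold of 0.652 (0.394 to 1.07), within counting error.

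Around the members, 35 other genes of their imprinted domains had been listed, of which 31 were in the table and 25 were tested. None of the 25 was called at 1.5-fold, beside 0.771% of all tested genes called higher and 1.18% called lower. Beyond counting error, 6 were higher and 6 lower, 24% in each direction beside the 20.3% and 17.0% of all tested genes given above. Their median log2 fold was −0.0059. The list was not complete. Trpm5, between the listed Kcnq1 and Tssc4, was not on it and was called lower at 1.5-fold (fold 0.296, 0.213 to 0.405). The 2 of the 25 with most counts were on opposite sides. Cd81, a tetraspanin, had 4244 counts in HO and 4809 in WT, a fold of 0.873 (0.838 to 0.910). Nap1l4, a histone chaperone, had 2735 counts in HO and 2031 in WT, a fold of 1.33 (1.26 to 1.41). Cd81 and Nap1l4 lie on either side of Cdkn1c, whose own fold was 1.18. Cd81 is not among the 3 nearest tested genes on its side, which are Kcnq1, Trpm5 and Tssc4.

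Other neighbours named here were chosen after their values were seen. Beside Peg3, Zim1, a zinc finger gene, had 154 counts in HO and 220 in WT, a fold of 0.693 (0.560 to 0.855), on the same side as Peg3. Beside Peg10 lies Sgce, which encodes epsilon-sarcoglycan and in the mouse is also expressed from the paternal copy. It had 639 counts in HO and 609 in WT, a fold of 1.04 (0.928 to 1.16), within counting error where Peg10 was lower. On the other side of Peg10, Ppp1r9a had 372 counts in HO and 494 in WT, a fold of 0.745 (0.650 to 0.854), lower like Peg10. Of the 6 nearest tested genes of Peg10, 1 was higher and 2 were lower beyond counting error. Beside Grb10, Ddc, the enzyme that makes dopamine and serotonin from their precursors, had 1291 counts in HO and 1088 in WT, a fold of 1.17 (1.08 to 1.27). On the other side of Grb10, Cobl, an actin nucleator, had 278 counts in HO and 365 in WT, a fold of 0.754 (0.642 to 0.883), so the genes on either side of Grb10 lay on opposite sides of a fold of 1.

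In the domain of Ndn, the 6 listed neighbours that were tested were within counting error like Ndn itself. So were 9676 of all 15426 tested genes. Snrpn, a splicing protein gene, had 155 counts in HO and 154 in WT. Magel2, a MAGE-family gene, had 165 counts in HO and 183 in WT. Mkrn3, a ubiquitin ligase gene, had 82 counts in HO and 80 in WT. Peg12, an imprinted gene of the FRAT family in the same domain, was not on the list. It was higher in HO, with 235 counts in HO and 186 in WT, a fold of 1.25 (1.03 to 1.52). The domain was therefore uniform only over the listed genes.

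**Figure D4:**
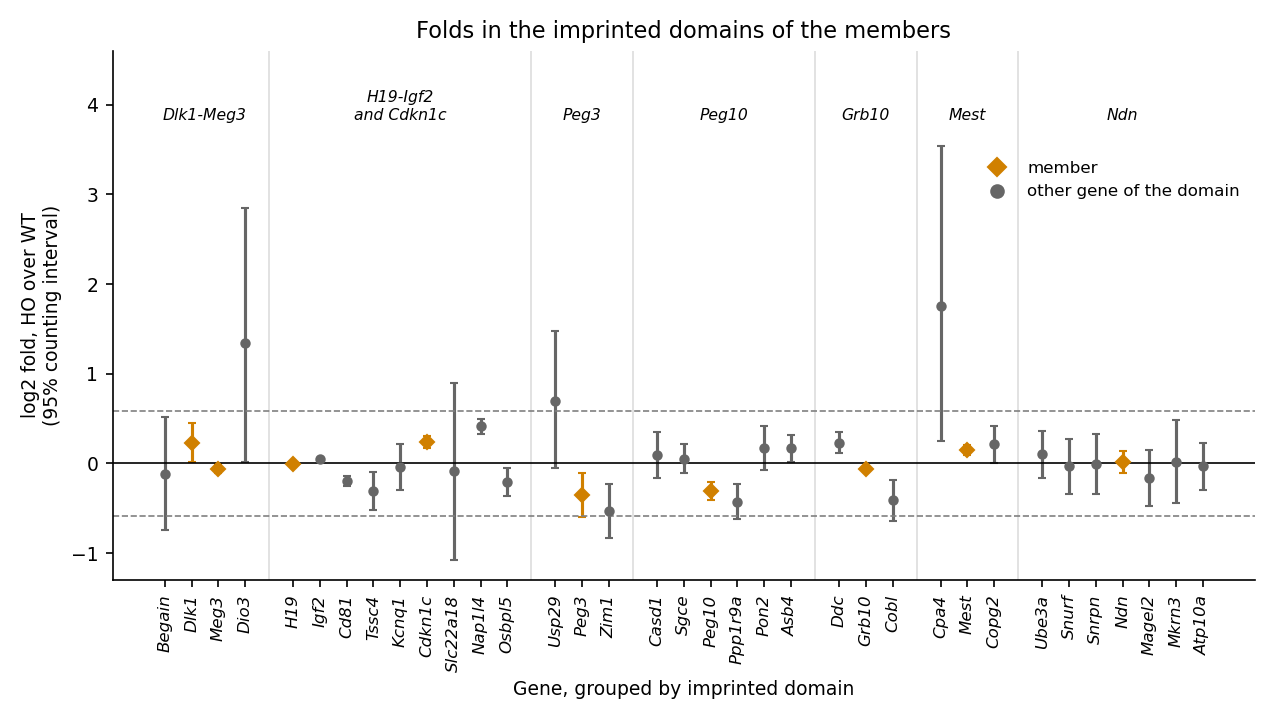
Log2 fold of HO over WT, with 95% counting intervals, of 9 of the 10 genes (diamonds) and of Igf2 and the 25 tested neighbours in their imprinted domains (circles), grouped by domain and with dashed lines at 1.5-fold. Plagl1 had no listed neighbour and is left out. Trpm5 and Peg12 were not listed and are not drawn. The intervals of the 7 genes drawn for the Ndn domain include 0, while Nap1l4 at 0.41 and Zim1 at −0.53 stand off on opposite sides, and Dio3 and Cpa4, with few counts, have the widest intervals above 0.

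Imprinted genes of other domains were also listed, and 15 of 20 were tested. None was called at 1.5-fold, none was higher beyond counting error, and 4 were lower (26.7% of the 15, beside 17.0% of all tested genes), with a median log2 fold of −0.037. Gnas, the stimulatory G protein subunit, had 12186 counts in HO and 12374 in WT (fold 0.974, 0.95 to 0.999), and Nnat, a small membrane proteolipid of fetal brain and endocrine cells, had 1326 counts in HO and 1322 in WT (fold 0.993, 0.919 to 1.07). The interval of Gnas, one of the 4 lower genes, ended close to 1, so its call can depend on the scaling. Over all 52 tested imprinted genes listed, 10 were higher and 15 lower beyond counting error. These are 19.2% and 28.8%, beside 20.3% and 17.0% of all tested genes.

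Of 18 listed regulators of imprints and DNA methylation, 14 were tested. The list mixes genes that keep methylation with genes that lay it down (Dnmt3a) or help remove it (Tet3). Beyond counting error, 1 was higher and 5 were lower, 7.14% and 35.7% beside the same 20.3% and 17.0%. The 5 lower genes were Zfp57, Dnmt1, Dnmt3a, Tet3 and Arid4b, so this share does not describe upkeep alone. The median log2 fold of the 14 was −0.10. Trim28, the corepressor that ZFP57 recruits, had 4787 counts in HO and 4749 in WT, a fold of 0.997 (0.958 to 1.04). Dnmt3a, a de novo DNA methyltransferase, had 2967 counts in HO and 3210 in WT, a fold of 0.915 (0.870 to 0.962). Dnmt1, the maintenance methyltransferase, and Zfp57 were chosen after their values were seen. Dnmt1 had 2831 counts in HO and 3138 in WT, a fold of 0.893 (0.848 to 0.940), and Zfp57 had 284 counts in HO and 332 in WT, a fold of 0.846 (0.720 to 0.995). The interval of Zfp57 ended close to 1, so its call, and with it the count of 5 lower genes, can depend on the scaling. DNA methylation itself was not measured.

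Protein relatives of the set were described beside it, 14 of 21 of them tested, with 2 higher and 1 lower beyond counting error (14.3% and 7.14%, beside 20.3% and 17.0%) and a median log2 fold of −0.091. Maged1, a MAGE-family relative of necdin, had 7895 counts in HO and 8772 in WT, a fold of 0.891 (0.864 to 0.918), and Maged2 of the same family had 6295 counts in HO and 6306 in WT, a fold of 0.988 (0.954 to 1.02). Among the relatives of Cdkn1c, named after their values were seen, Cdkn1a, the inhibitor p21, had 115 counts in HO and 81 in WT, a fold of 1.40 (1.05 to 1.89). Cdkn1b, the inhibitor p27, had 380 counts in HO and 374 in WT, a fold of 1.01 (0.869 to 1.16). By RPKM, Cdkn1c was the most abundant of the 3 inhibitors in both libraries.

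Cyclins, kinases and other cell cycle partners of Cdkn1c and necdin had 20 of 22 genes tested. None was called at 1.5-fold, beside 0.771% of all tested genes called higher and 1.18% called lower. Beyond counting error, 8 were higher and 1 was lower, 40% and 5% beside 20.3% and 17.0% of all tested genes, and the median log2 fold was 0.17. Cdk4, the kinase that pairs with D cyclins, had 6821 counts in HO and 6264 in WT, a fold of 1.08 (1.04 to 1.12). Ccnd3, cyclin D3, had 3472 counts in HO and 3662 in WT, a fold of 0.938 (0.895 to 0.983). Cdk1, the mitotic kinase, was named after its values were seen. It had 1692 counts in HO and 1181 in WT, a fold of 1.42 (1.32 to 1.53), on the same side as Cdkn1c. RNA levels do not measure cell division. The study stained dividing cells in OFTs at E13.5 and reported that proliferation did not differ significantly between WT and HO.

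Partners of Grb10 at the insulin receptor and mTORC1, a growth-controlling kinase complex, had 18 of 18 genes tested, with none at 1.5-fold, 3 higher and 6 lower beyond counting error (16.7% and 33.3%, beside 20.3% and 17.0%), and a median log2 fold of 0.00035. Nedd4, a ubiquitin ligase that binds GRB10, had 21921 counts in HO and 20460 in WT, a fold of 1.06 (1.04 to 1.08). Akt1, a kinase of the insulin pathway, had 4821 counts in HO and 5540 in WT, a fold of 0.861 (0.828 to 0.895), on the same side as Grb10.

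Some markers of the cell types of the OFT differed between the libraries. The counts below stand beside 20.3% of all tested genes higher and 17.0% lower beyond counting error. At 1.5-fold, 0.771% were called higher and 1.18% lower. Markers with many counts could pass at small folds, as Tnni1, named after its values were seen, did at 1.03 (1.01 to 1.05). Of 10 cardiomyocyte markers, 8 were higher and 1 lower beyond counting error, and their summed level was 13026 RPKM in HO and 10920 RPKM in WT. Of 10 markers of fibroblasts and cushion mesenchyme, 2 were higher and 6 lower, with 1513 RPKM in HO and 1789 RPKM in WT, and of 7 epicardial markers none was higher and 5 were lower, with 95.8 RPKM in HO and 156 RPKM in WT. All 8 endothelial markers were tested, 6 were higher and none lower, with 258 RPKM in HO and 233 RPKM in WT. Of 5 tested macrophage markers, 3 were higher and 1 lower, with 16.7 RPKM in HO and 9.37 RPKM in WT for the list. Of the tested markers of other types, 3 of 8 for smooth muscle, 4 of 9 for erythroid cells and 1 of 4 for hepatocytes were higher, and 3 of 8 for smooth muscle, 4 of 9 for erythroid cells, 2 of 5 for neurons and 1 of 4 for neural crest were lower. None of 3 epithelial markers differed beyond counting error. Lower at 1.5-fold were the collagen genes Col1a1 and Col1a2, the epicardial transcription factors Tbx18 and Tcf21, Mylk, the myosin kinase of smooth muscle, Dcx of neurons and Siglec1 of macrophages. Higher at 1.5-fold were Csf1r, the receptor of macrophage growth factor, with 130 counts in HO and 47 in WT, and Alb, serum albumin of hepatocytes, with 22 counts in HO and 1 in WT. The part of these markers in the folds of the imprinted genes was not tested. Of 6 placenta and yolk sac markers, 3 were at 0 in both libraries (Prl3d1, Prl3b1 and Tpbpa of the placenta), and the whole list had 25 counts in HO and 22 in WT, beside 1592 counts of Peg10 in HO and 1947 in WT.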

How the data were processed

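RNA was measured by bulk RNA-seq of pooled cardiac OFTs. Per the labels and the study's methods, the authors built libraries with the Ion Total RNA-Seq Kit v2, sequenced single-end reads on a Proton, cleaned them and aligned them with MapSplice to rat Rnor 6.0. The authors deposited whole-number counts per gene. They also deposited RPKM per gene, which they made from those counts and gene lengths. The counting tool, its annotation and its strand setting were not given in the sources used here, so reads of overlapping genes on opposite strands cannot be told apart. The labels give E13.5 for both samples, while the deposited column names carry 11.5, and the labels were followed.

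Members and lists were chosen with earlier results of these data known. Of the 10 members, 8 were matched by symbol, Meg3 through a RefSeq synonym and Peg3 through its RefSeq gene ID. GRCr8 was used for names, neighbour order and the printed sequences. Library sizes were scaled by TMM (edgeR 4.0.16, R 4.3.3), an HO over WT ratio of 1.01. Folds were taken for genes whose HO and WT counts summed to 20 or more, with exact 95% binomial intervals (scipy 1.17.1, Python 3.11.15). Intervals cover counting error only. Models of replicate spread (edgeR's quasi-likelihood test, DESeq2) cannot be fitted with 1 library a genotype, so no p-value is given. The scripts were tested on simulated data. The text names every member and, from each other list that is not of markers, the genes called at 1.5-fold (up to 6, by counts) and the 2 with most counts, together with Igf2 and Snx17. From marker lists it names genes called at 1.5-fold, while the 2 with most counts, which the rule also took, are given within the sums of their lists. Other genes were chosen after their values were seen, as stated beside them. Alternatives were DESeq2 size factors (1.42.0), total counts, upper-quartile factors, TMM without mitochondrial and haemoglobin genes, the ratio of RPKM, centring by abundance or by length, no filter, at least 100 counts, 99% intervals and a 2-fold threshold.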

Additional observations from a re-analysis of the deposited data

How the results depend on the processing

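None of the 10 genes was called at 1.5-fold under any alternative run. The filters on low counts cannot change a member's fold, and the ratio of RPKM repeats total counts, so 7 settings remain that could. Beyond counting error, Cdkn1c and Mest were higher and Peg3, Peg10, Grb10 and Plagl1 were lower in HO under 7 of these 7, and Ndn was within counting error under 7. The log2 fold of Mest was lowest at 0.076, centred by length, and that of Grb10 was furthest from 0 at −0.11, with upper-quartile factors. Dlk1 was higher under 2 of 7, with log2 folds from 0.17 to 0.25, and lost its call with both centrings, 99% intervals, total counts and upper-quartile factors. Meg3 was lower under 4 of 7, with log2 folds from −0.10 to −0.01, and lost its call with DESeq2 size factors, centring by length and 99% intervals. H19 was lower under 4 of 7, with both centrings, total counts and upper-quartile factors. With the 8 members matched by symbol alone, a choice made after seeing the data, 3 were lower beyond counting error and the median log2 fold was 0.0058, since Meg3 and Peg3 drop out. Over all genes, 75 were higher and 110 lower with at least 100 counts, 73 and 117 with 99% intervals, and 42 and 57 at 2-fold. Adding reads of unnamed copies was not run, since no such copy was found. No paired analysis was possible because each genotype had 1 library. No replicate could be left out for the same reason. The counting depth separates folds of a few percent for H19, Grb10 and Meg3, but for Dlk1 and Peg3, with 695 and 564 counts over both libraries, only larger ones, and the spread between embryos was not measured.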

Other observations

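The 3 nearest tested genes on each side of every member, in the gene order of GRCr8, were described after the members' values were seen. Of these 53 genes, none was called higher and 4 were called lower in HO at 1.5-fold, beside 0.771% and 1.18% of all tested genes. Near H19, Tnnt3, the fast skeletal troponin T, had 8 counts in the HO library and 33 in the WT library, a fold of 0.240 (0.0957 to 0.530), and Prr33 had 7 counts in HO and 36 in WT, a fold of 0.192 (0.0723 to 0.438). Near Cdkn1c, Trpm5, a cation channel known from taste cells, had 52 counts in HO and 174 in WT, a fold of 0.296 (0.213 to 0.405). Near Peg10, Col1a2, a fibrillar collagen chain, had 9120 counts in HO and 14070 in WT, a fold of 0.641 (0.625 to 0.659). The members themselves had folds of 0.998 for H19, 1.18 for Cdkn1c and 0.809 for Peg10. The listed markers of skeletal myoblasts, none of which reached the count minimum, had 14 counts in HO and 8 in WT in all.

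Among the listed regulators of imprints and DNA methylation, Hells, a chromatin remodeller needed for DNA methylation, was under the count minimum. It had 1 count in the HO library and 16 in the WT library, a fold of 0.0618 (0.00147 to 0.398). Among the cell cycle partners, Ccne1, cyclin E1, had 466 counts in HO and 297 in WT, a fold of 1.55 (1.34 to 1.80), and Rb1, the retinoblastoma protein that restrains the cell cycle, had 177 counts in HO and 93 in WT, a fold of 1.88 (1.46 to 2.45). None of these 3 genes was called at 1.5-fold. They were chosen after their values were seen.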
